A study of Rattus norvegicus and Ovis aries with 113 samples.

Results

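Collagens were taken as all genes whose upper-cased symbol is COL, a number, A and a number. The rule found 43 of 31304 genes in the sheep count files and 44 of 38675 genes in the rat count files, and 42 of them were found in both. COL21A1 was found only in the sheep files, and Col20a1 and Col6a4 only in the rat files. By the structure of their proteins they fell into 11 fibrillar chains, 6 basement membrane network chains (type IV), 5 sheep and 6 rat beaded filament chains (type VI), 3 hexagonal network chains (types VIII and X), 9 chains in each species that sit on the surface of fibrils (the FACIT group), 2 multiplexins (types XV and XVIII), 4 transmembrane collagens and 3 others (types VII, XXVI and XXVIII).

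The study measured polyadenylated RNA by sequencing in brain and reproductive samples of untreated animals. Post-pubertal male sheep numbered 687, 688, 690, 694 and 699 gave 10 brain regions and sperm, with 5 libraries in each group. Post-pubertal male Sprague Dawley rats gave 15 whole brains and 15 libraries labelled sperm, for which the series text names seminal fluid as the source, and female Sprague Dawley rats gave 14 whole brains and 14 ovaries. No genotype, transgene or agent distinguished the groups. The numbers that name rat libraries below are those of their labels.

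A collagen molecule is a triple helix of 3 chains, which can be copies of 1 chain or products of different genes. Fibrillar collagens assemble into the fibrils that give tissue its tensile strength, type IV forms the sheet-like network of basement membranes, and FACIT chains decorate fibrils without forming them. In brain, collagens are best known from the meninges, the blood vessel walls and the choroid plexus, while some chains, such as COL25A1 and COL19A1, are made by neurons; in the ovary they build the stroma, the follicle's basement membrane and the theca.

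Total counts per library ran from 38164144 to 119206015 in rat brain, 50485490 to 60265909 in ovary, 13714087 to 65107730 in rat sperm, 46697655 to 72403425 in sheep brain and 13698889 to 65146176 in sheep sperm. Ribosomal entries (Rn45s, Rn28s and 1 other) took 86.9% of the counts in female brain 1, the deepest library, 83.1% in male brain 4 and 54.0% in female brain 22, against 1.68% to 35.3% in the other rat libraries. In sheep sperm 4 entries took 22.4% to 85.2% of the counts, against 3.89% to 14.6% in sheep brain, so less of the total was left for other genes there. Rat sperm libraries 7, 16 and 17 held 327 to 532 genes at 1 to 4 counts, against 3061 to 5638 in the other rat sperm libraries; a level of 0 in those 3 may not be a measured 0. Neuron markers (SNAP25, SYT1 and others) summed to 3926 to 5325 CPM in rat brains and to at most 36.0 CPM in ovary, and granulosa cell markers summed to 956 to 3948 CPM in ovary. The 12 spermatid markers, PRM1 and TNP1 among them, ranged from 282 to 26873 CPM in rat sperm and from 222 to 7889 CPM in sheep sperm, against at most 67.4 CPM in any brain library. The rat sperm libraries also held 59.3 to 795 CPM of epididymis markers, and the sheep sperm libraries 3759 to 74690 CPM of stratified epithelium markers (keratins and their partners), so the sperm groups were unequal mixtures. All levels below are counts-per-million (CPM) with library totals scaled by trimmed-mean (TMM) factors; no gene lengths were used, so a level is compared between samples for 1 gene and never between genes.

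Type IV genes lie in head-to-head pairs that are transcribed away from a shared stretch of DNA. In the RefSeq annotation of rat assembly GRCr8, 76 bases separate the starts of Col4a1 and Col4a2, 412 those of Col4a3 and Col4a4, and 1263 those of Col4a5 and Col4a6. The Col4a1 and Col4a2 stretch and parts of the next pair are shown because the paired genes share a start region, and the starts of Col18a1 and Col13a1 because both had far higher levels in rat sperm than in brain. Each line runs 5′ to 3′, on the strand of the gene named first, and ends 1 base before that gene's start; capitals mark a GC box, GGGCGG on either strand.

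Col4a1 and Col4a2, chr16:84885521-84885596, plus strand, the whole stretch between the starts: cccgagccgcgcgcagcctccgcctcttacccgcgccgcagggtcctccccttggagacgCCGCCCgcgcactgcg

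Col4a3, chr9:91323890-91323989, plus strand: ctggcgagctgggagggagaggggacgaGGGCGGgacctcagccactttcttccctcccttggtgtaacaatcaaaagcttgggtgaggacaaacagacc

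Col4a4, chr9:91323578-91323677, minus strand: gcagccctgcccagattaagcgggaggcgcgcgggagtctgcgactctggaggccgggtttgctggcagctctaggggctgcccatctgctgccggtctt

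Col18a1, chr20:11473545-11473644, plus strand: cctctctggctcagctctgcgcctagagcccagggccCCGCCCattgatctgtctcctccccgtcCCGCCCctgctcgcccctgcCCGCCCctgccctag

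Col13a1, chr20:30466801-30466900, minus strand: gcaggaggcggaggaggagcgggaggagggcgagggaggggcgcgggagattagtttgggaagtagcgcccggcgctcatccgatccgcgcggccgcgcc

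The sequences are from RefSeq's GRCr8 table, which held 35 of the 44 rat collagens. The 100 bases before the start held a GC box in 17 of those 35 genes (48.6%), against 23.1% of all 27457 promoters of the same length, a set not matched to the collagens. TATAAA was found there on either strand for Col10a1 alone (5.95% of all promoters), and CCAAT for 3 genes (17.3%). Col4a1 and Col4a2 are both among the 17, and the GC box in their shared 76 bases counts for each. A match is only a match of letters. By the same annotation, 24 of the 44 collagens overlap another annotated gene and 7 overlap a protein-coding one, such as Col1a1 with Sgca and Col10a1 with Nt5dc1; whether counting used strand is not given in the sources used here, so reads of overlapping genes may not be separable.

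The ovary held far more collagen mRNA than the brain of female rats. The structural core rose together: types I and III, the main fibrillar collagens of loose connective tissue, the type IV chains of basement membranes, and the type VI chains that form beaded microfibrils around cells. Brain was higher for another set, led by the fibrillar chain Col11a2, the type IX chains Col9a2 and Col9a3, the FACIT chain Col19a1 and the transmembrane collagen Col25a1. Of 44 collagens tested, 29 were called higher in ovary and 11 lower, where called means an adjusted p below 0.05 and a log2 fold change of at least 1 in edgeR's quasi-likelihood test. Of all 20801 genes tested, 27.7% were called higher and 29.2% lower, and the median log2 fold change was 2.10 for the collagens and 0.02 for all genes. In 22 of the 29 and 7 of the 11, no ovary library overlapped any brain library. Over all genes, 5763 were called higher and 6069 lower. Of these, 9444 were without overlap in either direction (45.4% of all genes tested). Without brain library 1, which was mostly ribosomal, the counts were 29 and 10 (an alternative chosen after seeing the data, which left out male brain 4 as well). Of all genes, 5710 were called higher and 6095 lower in that alternative.

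Among the fibrillar genes, Col3a1, the chain of type III collagen, was at 984 CPM in the lowest ovary library, 1890.0 at the median and 3762 in the highest. In female brain it was at 5.47, 12.9 and 36.3 CPM. Every ovary library lay above every brain library, and the difference was 6.95 ± 0.37 on the log2 scale (SE, n = 14 and 14, edgeR adjusted p = 1.88e-17). Col1a1, which encodes the α1 chain of type I collagen, ranged from 865 to 2712 CPM in ovary with a median of 1466, and from 6.68 to 36.6 CPM in brain with a median of 17.3. Its fold change was 6.44 ± 0.31 on the log2 scale (SE, edgeR adjusted p = 1.62e-18), without overlap. Col1a2, the partner chain, ranged from 683 to 1977 CPM against 9.72 to 52.3, again without overlap (log2 fold change 5.60 ± 0.27 SE, edgeR adjusted p = 2.01e-18). Fewer cells of a type and less RNA per cell cannot be told apart in these bulk samples.

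All 6 basement membrane chains and all 6 beaded filament chains were called higher in ovary. Col4a1 had 460.3 CPM in the lowest, 721 in the median and 1169.6 in the highest ovary library, against 18.4, 22.4 and 39.3 CPM in brain. Col4a2, its partner in the most widespread type IV network, had 328, 505 and 785 CPM against 29.7, 37.0 and 50.1 CPM. The groups did not overlap for either chain, and the log2 fold changes were 5.01 ± 0.15 and 3.80 ± 0.12 (SE, edgeR adjusted p = 1.31e-23 and 7.30e-23). Col4a5, an X-linked type IV chain, was 3.43 higher on the log2 scale. Col6a3, the longest of the classical type VI chains, ran from 209 to 408 CPM in ovary with a median of 309, and from 2.71 to 7.95 CPM in brain with a median of 5.67. Its difference of 5.85 ± 0.15 on the log2 scale (SE, edgeR adjusted p = 1.01e-25) came with no overlap between the groups, and Col6a1 and Col6a2, the other two chains of the same microfibril, were 4.02 and 5.15 higher on that scale. Among the multiplexins, which sit at the edge of basement membranes, Col18a1 and Col15a1 were 3.74 and 4.12 higher on the log2 scale.

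The genes that were lower in ovary were led by Col11a2, a fibrillar chain best known from cartilage and the inner ear. It had 86.6 CPM in the lowest, 118 in the median and 155 in the highest female brain, and 1.30, 2.44 and 3.90 CPM in ovary, so that the groups were far apart (log2 fold change −5.58 ± 0.14 SE, edgeR adjusted p = 2.44e-25). Col11a1, which encodes a partner chain in type XI collagen, went the other way: 58.8 to 272 CPM in ovary against 9.71 to 17.6 CPM in brain (log2 fold change 3.61 ± 0.18 SE). Col9a2 and Col9a3, chains of a FACIT collagen of cartilage fibrils, had log2 fold changes of −5.26 and −5.17, and Col19a1, a FACIT chain made by some interneurons, had −4.12. Col25a1, a transmembrane collagen of neurons that is also found in amyloid plaques, had a median of 58.6 CPM in brain (31.6 to 84.6) and 6.21 CPM in ovary (0.821 to 43.7). Here the highest ovary library reached into the brain range, and the log2 fold change was −2.71 ± 0.37 (SE, edgeR adjusted p = 7.17e-08).

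**Figure D1:**
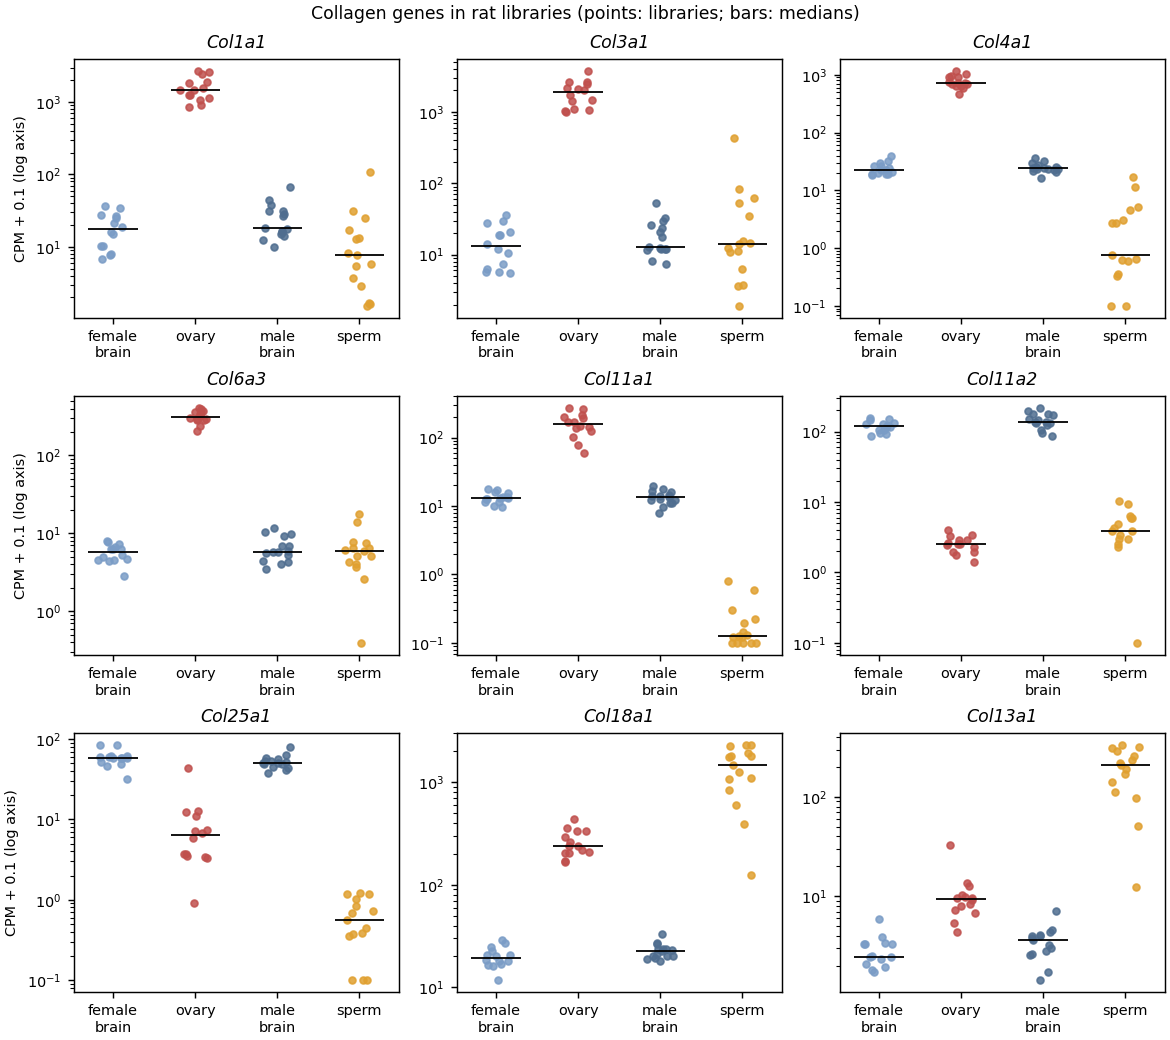
CPM (log axis, CPM + 0.1) of 9 rat collagens in female brain, male brain, ovary and sperm; each point is a library and each bar a group median. Col1a1, Col3a1, Col4a1 and Col6a3 sit highest in ovary, Col11a2 and Col25a1 in both brain groups, and Col18a1 and Col13a1 in sperm.

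Chains that share a molecule did not rise in equal measure. Within each library the log2 ratio of the counts of 9 chain pairs was taken, with 0.5 added to each count, and compared between ovary and female brain by a two-sided permutation test with 100000 resamples. The ratio of Col11a1 to Col11a2 was 5.97 ± 0.64 in ovary and −3.17 ± 0.25 in brain (SD, n = 14 each), a shift of 9.13. That of Col4a1 to Col4a2, the genes on either side of the 76-base stretch printed above, was 0.50 ± 0.06 in ovary and −0.74 ± 0.23 in brain, a shift of 1.23. The ratio of Col1a1 to Col1a2 shifted by 0.84 towards the α1 chain, and that of Col6a1 to Col6a2 by −1.15. The groups did not overlap for any of these 4 pairs, whose permutation p of 1e-05 is the smallest that this number of resamples can give. In the other 5 pairs the shift was −1.18 for Col4a3 to Col4a4, 0.87 for Col4a5 to Col4a6, 0.57 for Col5a1 to Col5a2, 0.84 for Col8a1 to Col8a2 and 1.99 for Col9a1 to Col9a2; the p was 0.0041 for type VIII and 1e-05 for the rest.

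Most genes on the lists of collagen-making, binding and degrading proteins were called higher in ovary too, where 27.7% of all genes were called higher and 29.2% lower. Of 31 maturation and cross-linking genes 21 were called higher and 3 lower, among them Serpinh1, the collagen chaperone HSP47, at 4.04, Lox, a lysyl oxidase that cross-links fibrils, at 4.38, and Pcolce, an enhancer of propeptide removal, at 6.17 on the log2 scale. Of 16 basement membrane partners 12 were higher and 1 lower (Hspg2, the proteoglycan perlecan, at 5.35). Of 10 collagen receptors 8 were higher and 1, Lair1, lower at −4.39, and of 6 collagen-degrading enzymes 5 were higher and 1, Mmp9, lower at −1.11; Mmp13, a collagenase, was at 9.29. Markers of other cell types moved with these genes: the 10 fibroblast markers, none of them a collagen, summed to 1038 to 1957 CPM in ovary and 87.4 to 151 CPM in female brain, and the 7 mural cell markers to 693 to 1620.0 CPM and 62.1 to 139 CPM. Their part in the collagen difference was not tested.

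Between the brains of male and female rats hardly any gene was called and no collagen was, so the count says little about the collagens. None of 44 was called in either direction in edgeR's quasi-likelihood test, in which 0.0438% of 20570 genes were called higher in males and 0.0146% lower, and DESeq2 called none. At an unadjusted p below 0.05, 5 were higher in males (Col5a1, Col6a2, Col9a2, Col11a2 and Col12a1) and 0 lower. The log2 fold changes lay between −0.17 and 0.46 with a median of 0.15, and the smallest adjusted p was 0.367.

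Rat sperm libraries held a different selection of collagens. Col18a1, Col13a1, Col7a1 and Col22a1 stood above brain, while the type IV chains Col4a1 and Col4a2 and the brain-expressed chains Col11a2, Col25a1 and Col27a1 fell to a few CPM or less. Against male brain 11 of 44 collagens were called higher and 19 lower, where 27.7% and 31.5% of 20480 genes were called so. The median log2 fold change was −0.43 for collagens and −0.03 for all genes. In 3 of the 11 and 15 of the 19 no sperm library overlapped any brain library. Over all genes, 5663 were called higher and 6448 lower. Of these, 6477 were without overlap in either direction (31.6% of all genes tested). The number called higher was 6 with limma-voom and 6 with the library number as a block, and in both Col3a1, Col6a2, Col6a5 and Col14a1 were no longer called higher. All-gene counts called higher were 4977 with limma-voom and 4384 with the block, against 5663 in the main fit.

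Col18a1, a multiplexin of basement membranes whose end fragment is endostatin, had 125 CPM in the lowest, 1485 in the median and 2314 in the highest sperm library, against 18.1, 22.4 and 33.1 CPM in male brain. Every sperm library exceeded every brain library (log2 fold change 6.04 ± 0.29 SE, n = 15 and 15, edgeR adjusted p = 4.16e-18). Its ovary range of 166 to 435 CPM lay below most sperm libraries. Col13a1, a transmembrane collagen known from the neuromuscular junction, had 12.3, 208 and 333 CPM in sperm against 1.34, 3.52 and 7.05 CPM in male brain, with no overlap (log2 fold change 5.91 ± 0.34 SE, edgeR adjusted p = 2.91e-16). Col7a1, which builds the anchoring fibrils under stratified epithelia, ranged from 4.58 to 140 CPM around a median of 60.1, against 1.26 to 5.20 CPM in brain, so its lowest sperm library fell inside the brain range (log2 fold change 4.33 ± 0.37 SE, edgeR adjusted p = 3.96e-12).

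Col22a1, a FACIT chain of tissue junctions such as that of muscle and tendon, was far less even. It ranged from 1.03 to 411 CPM in sperm around a median of 8.29, and from 0.268 to 1.00 CPM in male brain (log2 fold change 6.69 ± 0.91 SE, edgeR adjusted p = 8.40e-08). The groups did not overlap, but 5 libraries carried most of the signal: library 14 had 411 CPM, library 7 had 171, library 3 had 60.3, library 13 had 27.3 and library 10 had 22.1. These were also the 5 libraries with the highest sums of spermatid markers, at 26873, 20122, 8564, 2802 and 5288 CPM. Without libraries 3, 7 and 14, an alternative chosen after seeing the data, the log2 fold change of Col22a1 was 3.87 (edgeR adjusted p = 7.21e-09) and that of Col18a1 6.29. Col16a1, another FACIT chain, was at 401, 322 and 95.2 CPM in libraries 14, 7 and 3.

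Col18a1 ran with other markers. The 5 libraries with its lowest levels were the 5 with the lowest sums of epididymis markers: library 7 had 125 CPM of Col18a1 and a marker sum of 59.3 CPM, library 14 had 394 and 126, and library 3 had 599 and 237. Of the 5 libraries highest in Col18a1, 4 were among the 5 highest in that sum. The part of spermatid or epididymis RNA in either gene's level was not tested.

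**Figure D2:**
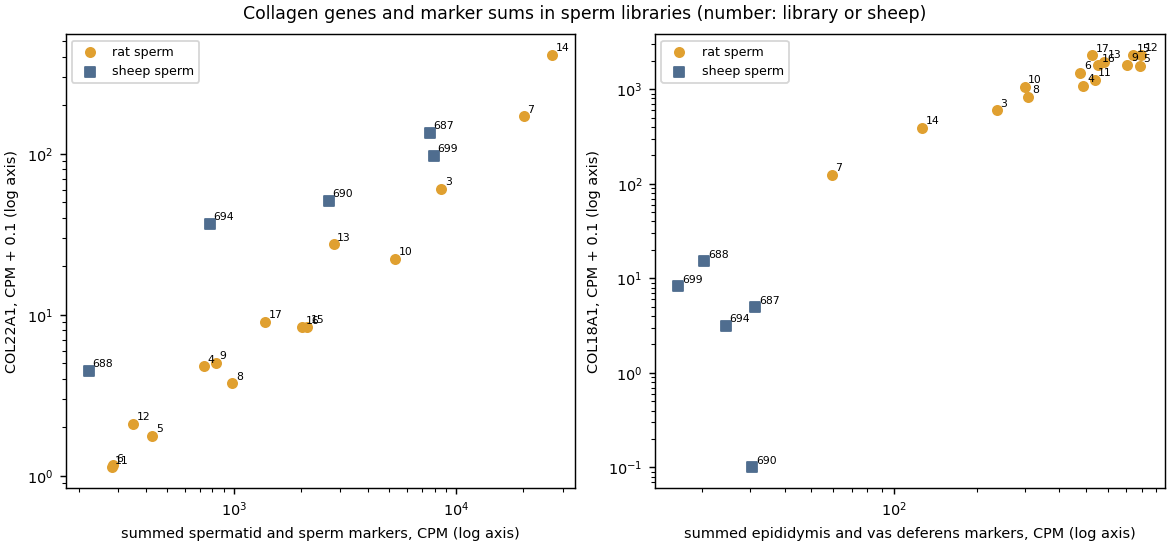
Each point is a sperm library of rat or sheep; COL22A1 (CPM) is plotted against the summed CPM of 12 spermatid markers, and COL18A1 against the summed CPM of epididymis markers. Rat libraries 14, 7 and 3, with 411, 171 and 60.3 CPM of Col22a1, have the highest Col22a1 levels and marker sums above most rat libraries, and library 7, with 125 CPM of Col18a1, has the lowest rat value of that gene.

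Types I, III and VI showed how 1 library can carry a group. Sperm library 15 had 566 CPM of Col6a2, 542 of Col6a1 and 431 of Col3a1, the highest values of the group, whose medians were 5.32, 6.47 and 14.1 CPM; it also had the highest fibroblast marker sum, 146 CPM. Col6a2 and Col3a1 were called higher in sperm with log2 fold changes of 1.67 ± 0.73 and 1.49 ± 0.59 (SE, edgeR adjusted p = 0.0392 and 0.0229). Without library 15 the values were −0.81 and 0.39 (edgeR adjusted p = 0.0463 and 0.418), and that of Col6a5, 2.03 with all libraries, was 1.08 (edgeR adjusted p = 0.0855). Col1a1 and Col1a2, at medians of 7.61 and 5.65 CPM in sperm and 18.0 and 25.6 CPM in male brain, had log2 fold changes of −0.54 and −0.78 and were not called. The number called higher without library 15 was 8, where 5705 of all genes were.

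Collagens lower in rat sperm came from several classes: 8 of 11 fibrillar, 5 of 9 FACIT, 2 of 6 basement membrane, 2 of 3 hexagonal, 1 of 2 multiplexin and 1 of 4 transmembrane chains. Col25a1 went from 38.0, 50.3 and 80.3 CPM in the lowest, median and highest male brain to 0, 0.451 and 1.10 CPM in sperm (log2 fold change −6.55 ± 0.47 SE, edgeR adjusted p = 5.21e-14). Col27a1, a fibrillar chain of cartilage, went from 26.7, 57.7 and 92.4 to 0, 0.558 and 2.12 CPM (log2 fold change −6.16 ± 0.45 SE, edgeR adjusted p = 1.33e-13). Col4a2 went from 29.3, 40.0 and 50.4 to 0, 0.561 and 7.85 CPM (log2 fold change −4.89 ± 0.54 SE, edgeR adjusted p = 1.27e-09). In each of these 3 genes the highest sperm library stayed below the lowest brain. Their values of 0 came from libraries 16 and 17, and for Col25a1 also 7, the libraries with few low counts; the lowest of the other 12 sperm libraries were at 0.258 CPM for Col25a1, 0.214 for Col27a1 and 0.237 for Col4a2. Without those 3 libraries, an alternative chosen after seeing the data, the log2 fold changes were −6.25, −6.01 and −4.61. Of the pathway genes tested here, 6 of 31 maturation genes were called higher and 13 lower, 5 and 4 of 10 receptors, 3 and 5 of 16 basement membrane partners and 1 and 0 of 4 degrading enzymes. Over all genes 27.7% were called higher and 31.5% lower, so several of these counts are near the background. Itga2, a collagen-binding integrin chain, was highest of the named ones at 7.76 on the log2 scale, and Colgalt2, a collagen galactosyltransferase, was at −7.03.

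Ovary and sperm of rats were set side by side as the tissues of female and male animals, so that tissue and sex cannot be told apart. Of 42 collagens tested 28 were higher in ovary and 7 lower, where 27.9% and 22.9% of 19611 genes were called so (edgeR's quasi-likelihood test). Col2a1 and Col9a1 did not pass the filter on low counts. In 17 of the 28 and 0 of the 7 the libraries did not overlap. Over all genes, 5480 were called higher and 4491 lower. Of these, 4438 were without overlap in either direction (22.6% of all genes tested). The 7 higher in sperm were Col22a1, Col13a1, Col26a1, Col18a1, Col10a1, Col23a1 and Col7a1, with log2 fold changes from −5.67 to −1.99 (ovary minus sperm). The largest difference the other way was that of Col11a1, at 10.17, whose highest sperm library was at 0.715 CPM and lowest ovary library at 58.8 CPM. Col4a2 and Col4a1 followed at 8.71 and 7.76. Col26a1 was highest in sperm libraries 7, 14 and 3, at 10.9, 7.28 and 4.42 CPM. Without those libraries, an alternative chosen after seeing the data, its value was −1.29 (edgeR adjusted p = 0.0303). That of Col22a1 was then −3.02 (edgeR adjusted p = 2.75e-06). This comparison uses the same ovary and sperm libraries as those against brain.

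**Figure D3:**
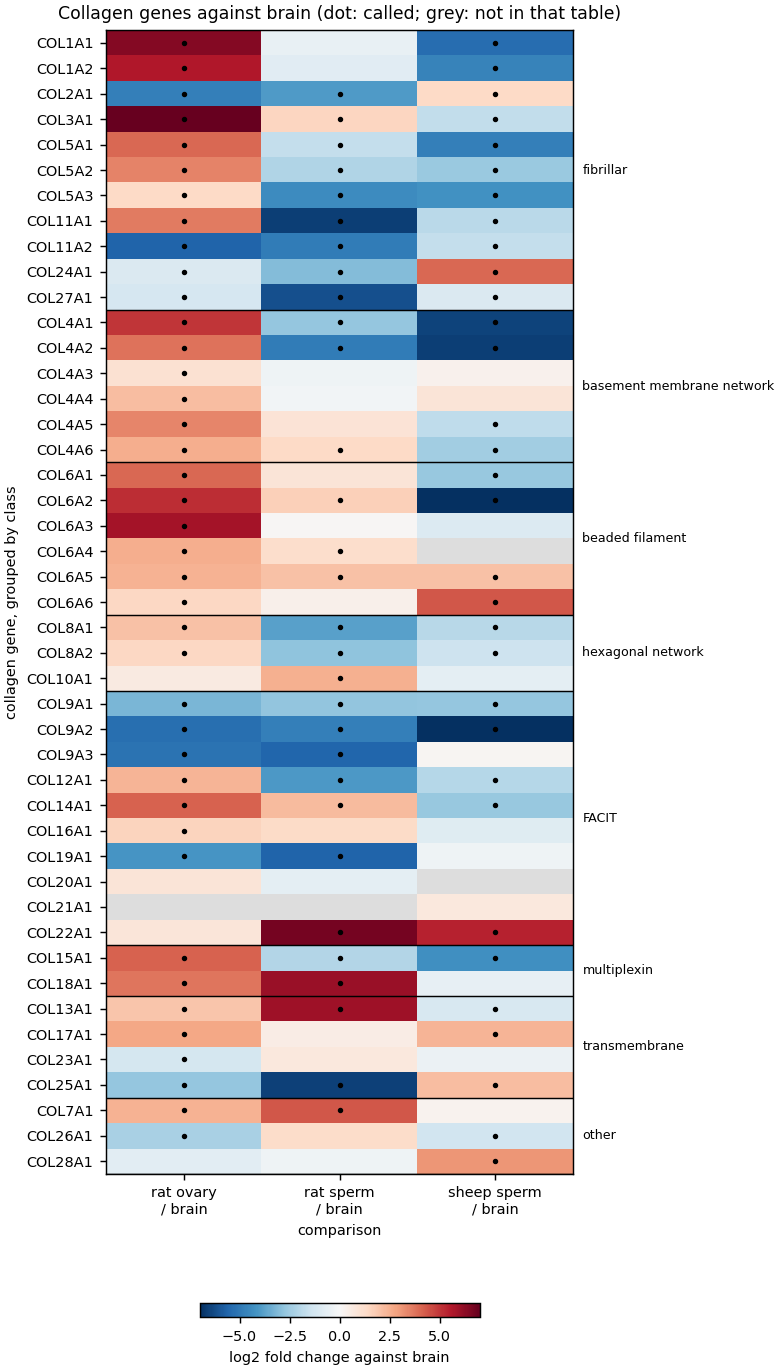
Log2 fold change of each collagen, grouped by class, in rat ovary against female brain, rat sperm against male brain and sheep sperm against sheep brain; colour runs from −7 to 7, a dot marks a called gene and grey a gene not in that species' table. The ovary column is mostly higher through the basement membrane and beaded filament classes, where all 12 genes were called, and both sperm columns are mostly lower among the fibrillar genes.

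With TMM scaling, more collagens were called lower than higher in sheep sperm against sheep brain. The type I chains, COL4A1, COL4A2 and COL6A2 fell to near 0 CPM, while a small set, led by COL22A1, COL24A1 and COL6A6, was higher. Of 43 collagens 8 were called higher than the mean of the 10 regions and 24 lower, where 33.1% and 41.1% of 21859 genes were called so (edgeR's quasi-likelihood test). The median log2 fold change was −1.35 for collagens and −0.42 for all genes. No sperm library overlapped any brain library in 1 of the 8 and 8 of the 24. Over all genes, 7239 were called higher and 8976 lower. Of these, 8333 were without overlap in either direction (38.1% of all genes tested). The split depended on scaling: with upper-quartile factors 13 rose and 14 fell, and the all-gene median moved to 0.31; the directions below are relative to that median. The 50 brain libraries came from 5 sheep. With brain counts summed per sheep, 6 were higher and 20 lower, and limma-voom called 4 higher and 8 lower. All-gene counts higher and lower were 6341 and 8358 with summed brain counts and 4825 and 7036 with limma-voom. With upper-quartile factors they were 8907 and 6980.

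Levels in sheep sperm depend on the scaling, since the TMM factors there were 0.124 to 0.343. With plain library totals, the mean was 12.4 CPM in place of 64.7 for COL22A1, 11.5 in place of 59.8 for COL24A1, 3.23 in place of 14.2 for COL25A1, 3.66 in place of 15.1 for COL17A1 and 1.43 in place of 6.23 for COL6A6. With TMM scaling, COL22A1 stood at 135 CPM in the sperm of sheep 687, 4.39 in 688, 51.1 in 690, 36.6 in 694 and 96.7 in 699 (log2 fold change 5.39 ± 0.35 SE, edgeR adjusted p = 6.06e-20). COL24A1, a minor fibrillar chain, had 113, 3.60, 50.2, 27.7 and 104 CPM in the same order of sheep (log2 fold change 4.03 ± 0.29 SE, edgeR adjusted p = 5.26e-18). Both were highest in sheep 687 and 699 and lowest in 688. The spermatid marker sums of the same libraries, 7605, 222, 2660, 778 and 7889 CPM, were also highest in 687 and 699 and lowest in 688, where the stratified epithelium markers reached 74690 CPM; the part of either in the collagen levels was not tested. COL25A1 had 9.44, 0.720, 19.1, 12.3 and 29.4 CPM (log2 fold change 2.15, edgeR adjusted p = 2.46e-08), and again 688 was the lowest. COL6A6, a beaded filament chain, had 8.45, 1.01, 5.08, 8.88 and 7.71 CPM, and it was the gene without overlap with brain (log2 fold change 4.36 ± 0.25 SE, edgeR adjusted p = 4.33e-22). These p-values count the 50 brain libraries of 5 sheep as separate samples. With brain counts summed per sheep, the edgeR adjusted p was 4.25e-04 for COL22A1, 0.00154 for COL24A1, 0.039 for COL25A1 and 1.34e-04 for COL6A6.

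COL17A1, the collagen of the hemidesmosome that anchors epithelial cells, ran differently, with 10.7, 22.3, 22.4, 8.58 and 11.3 CPM in sperm of 687, 688, 690, 694 and 699 (log2 fold change 2.37). Its level in 688 was close to the highest. COL28A1, at 7.70, 9.00, 1.49, 3.85 and 2.54 CPM, was 3.09 higher on the log2 scale. With limma-voom neither COL17A1 nor COL28A1 was called (adjusted p = 0.138 and 0.157). The calls of COL2A1 and COL6A5 rested on few libraries, and both were lost with brain counts summed per sheep (edgeR adjusted p = 0.292 and 0.247). COL2A1, the main cartilage fibril chain, had 8.82, 0, 0, 1.38 and 6.55 CPM (log2 fold change 1.40), and without sheep 687 its value was 0.65 (edgeR adjusted p = 0.25) and without 699 it was 0.94 (0.0929). COL6A5 had 6.46, 0.504, 2.09, 15.9 and 4.76 CPM (log2 fold change 2.04), and without sheep 694 it was 1.23 (edgeR adjusted p = 0.121).

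Several main structural chains were almost unseen in sheep sperm. COL3A1, called lower as well, was found in all 5 libraries. It had 3.35, 0.0720, 1.79, 5.82 and 2.64 CPM in sheep 687, 688, 690, 694 and 699. COL1A1 had 0.621, 0, 0, 1.48 and 0 CPM, COL4A1 had 0.497, 0, 1.20, 0.493 and 0, and COL4A2 had 0.124, 0, 0.299, 0.789 and 0.528 in sheep 687, 688, 690, 694 and 699. Their log2 fold changes were −5.32, −6.48 and −6.60 (edgeR adjusted p for COL4A1 and COL4A2 1.16e-15 and 2.52e-19). With brain counts summed per sheep, the edgeR adjusted p of COL4A1 and COL4A2 was 1.11e-04 and 1.72e-05. COL6A2 and COL9A2 had 2 counts each in all 5 sperm libraries together. The pooled ratio of brain to sperm was 414 for COL6A2, with a 95% counting interval of 115 to 3420.2, and 232 for COL9A2, with 64.1 to 1913. These intervals are exact and cover counting error only. Of the pathway genes, 5 of 31 maturation genes were higher and 18 lower, among them SERPINH1 at −7.76 on the log2 scale; 2 and 5 of 10 receptors, 2 and 8 of 15 basement membrane partners, and 1 and 3 of 4 degrading enzymes were higher and lower. Over all genes 33.1% were called higher and 41.1% lower, and the counts for receptors and basement membrane partners lie near the latter.

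Rat and sheep sperm had some collagens in common and differed in others, while species and library kit cannot be told apart. Of the 42 shared collagens, 24 were called in both species: 14 lower in both, 2 (COL22A1 and COL6A5) higher in both, 3 that rose in sheep sperm but fell in that of rats, and 5 that did the reverse. Of these, COL6A5 lost its call in both species, in sheep without 694 and in rat without library 15, and the rat calls of COL3A1 and COL6A2 were also lost or turned without library 15. Among the 14 lower in both, the sheep calls of COL8A1, COL8A2 and COL27A1 were lost with RLE and with upper-quartile factors. Those of COL11A2 and COL12A1 were lost with upper-quartile factors. With limma-voom the sheep calls of all these genes and of COL15A1 were lost. The difference between the species' fold changes was tested in 1 fit over both (edgeR's quasi-likelihood test). It was called for 9 collagens in the direction of sheep and 16 in that of rat, where 23.9% and 38.4% of 15172 genes were called so, and the median was −1.72 for collagens and −0.69 for all genes. With relative-log (RLE) or upper-quartile factors the split was 12 and 10. The split over all genes turned as well, from 3619 and 5827 to 5044 and 3978 with RLE and 4766 and 4376 with upper-quartile factors. The all-gene median moved to 0.22 and 0.06.

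Apart from COL22A1 and COL6A5, the genes below were picked because they were called in opposite directions in these same libraries. Their p-values are thus not separate support for a difference. Among them COL25A1 had the largest term in the direction of sheep. It was higher in sperm than brain in sheep and lower in rat, and the term was 8.38 ± 0.91 on the log2 scale (SE, edgeR adjusted p = 2.74e-10). COL24A1 had 6.63 ± 0.91 (SE, edgeR adjusted p = 4.86e-08) and COL2A1, whose sheep value rested on 2 libraries, 5.26 ± 1.08 (SE, edgeR adjusted p = 5.44e-05). In the other direction COL13A1 had −7.36 ± 0.78 (SE, edgeR adjusted p = 1.14e-10): rat sperm was 5.91 above brain on the log2 scale, while sheep sperm was −1.11, a call lost in 3 of the 5 fits that each left out 1 sheep. That sheep call was also lost with RLE and upper-quartile factors (edgeR adjusted p = 0.0881 and 0.469). It was lost with brain counts summed per sheep too (edgeR adjusted p = 0.107). DESeq2 and limma-voom did not call it either (adjusted p = 0.0625 and 0.462). COL4A6 had −3.83 ± 0.75 (SE, edgeR adjusted p = 2.53e-05) and COL14A1 −4.96 ± 1.28 (SE, edgeR adjusted p = 9.06e-04). The rat call of COL14A1 was lost with the block (0.34, adjusted p = 0.633) and with limma-voom (0.40, adjusted p = 0.342), and its sheep call with limma-voom (adjusted p = 0.214). The term of COL6A2, −10.03 ± 1.96 (SE, edgeR adjusted p = 2.70e-05), rests on 2 counts in sheep sperm and on rat library 15, and its size depends on the prior count. For COL22A1 and COL6A5 the terms of −2.10 and −0.95 were not called (edgeR adjusted p = 0.169 and 0.514).

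Within the sheep brain most collagens varied by region. An F test over the 10 regions in edgeR's quasi-likelihood framework called 37 of 43, where 52.4% of 21147 genes were called. The mean level was highest in pons for 15 collagens and in hippocampus for 11, and lowest in cerebellum for 22 and in basal ganglia for 7. Each region was then compared with the mean of the other 9 on the log scale. In cerebellum 3 collagens were called higher and 22 lower, where 9.35% and 19.5% of all genes were. In pons it was 14 and 5 (9.66% and 9.02%), in hippocampus 10 and 1 (3.46% and 1.15%), and in basal ganglia 3 and 8 (5.54% and 4.75%). In entorhinal cortex it was 6 and 0 (2.23% and 0.0142%), and the latter 0 was also the count at an unadjusted p below 0.05 and in DESeq2. In frontal cortex it was 2 and 1 (2.36% and 0.402%), in motor cortex 2 and 1 (1.51% and 0.128%), in posterior parietal cortex 1 and 1 (2.20% and 0.454%), in visual cortex 2 and 1 (1.87% and 0.251%), and in prefrontal cortex 3 and 0 (1.75% and 0.705%). For the last, 5 were lower at an unadjusted p below 0.05 and 1 was called lower by DESeq2. Several of these counts moved with single libraries. Without the frontal cortex library of 699 and the posterior parietal library of 694, an alternative chosen after seeing the data, hippocampus had 16 higher. Of all genes, 831 were higher there, against 732 in the main fit. Entorhinal cortex had 3 higher without sheep 694 and 3 without 699, and frontal cortex had 0 higher without 687 and 1 without 690 or 699. Of all genes, 309 were higher in entorhinal cortex without 694 and 247 without 699, against 471 with all sheep. Pons had 3 lower without 687 and 3 without 699, cerebellum had 5 higher without 690 and prefrontal cortex had 1 higher without 687.

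**Figure D4:**
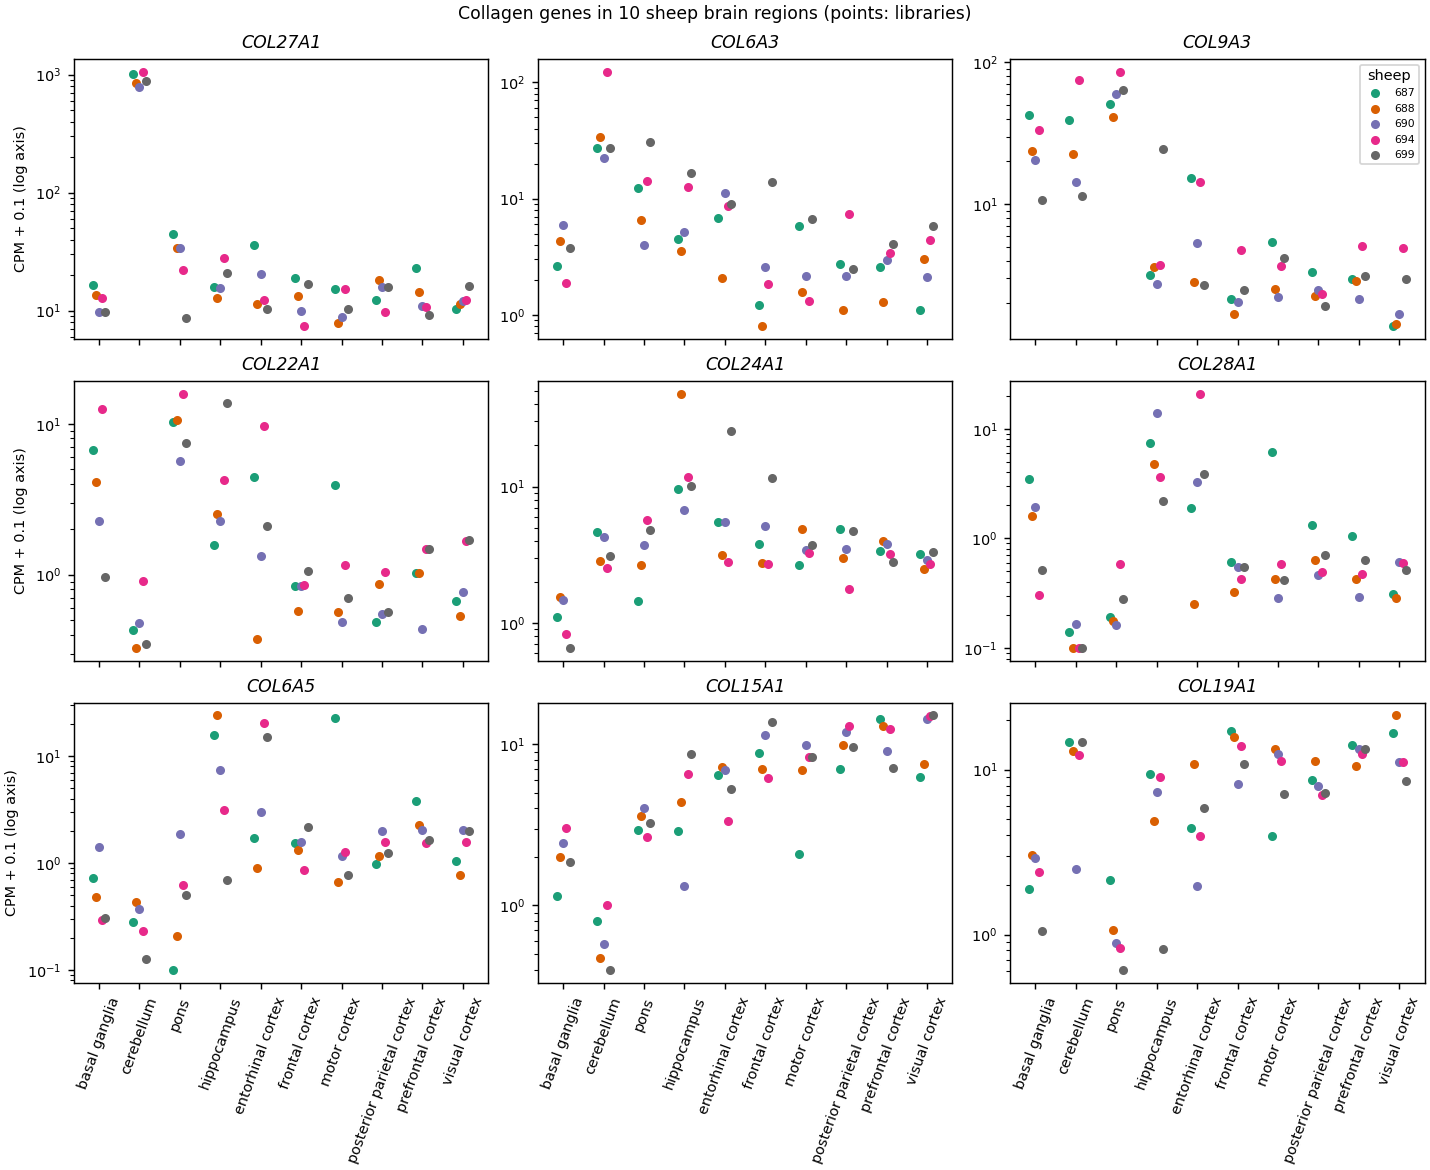
CPM of 9 sheep collagens in the 10 brain regions, each point 1 library coloured by sheep. COL27A1 lies between 784 and 1055 CPM in cerebellum, far above the other regions, COL9A3 is highest in pons, and COL15A1 is lowest in cerebellum and COL19A1 in pons.

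COL27A1 had the largest log2 fold change of any collagen in any region. In cerebellum it had 1012 CPM in sheep 687, 842 in 688, 784 in 690, 1055 in 694 and 889 in 699, a mean of 916 ± 114 (SD, n = 5). The mean of the other regions was 15.8 CPM, no library there reached the cerebellar range, and the log2 fold change was 5.89 ± 0.17 (SE, edgeR adjusted p = 5.80e-30). COL6A3 was higher in cerebellum too, with 26.9, 34.0, 22.1, 123 and 27.0 CPM, where sheep 694 stood apart (log2 fold change 3.28 ± 0.37 SE, edgeR adjusted p = 2.14e-10). COL9A3 was the third, at 39.3, 22.4, 14.2, 75.3 and 11.3 CPM (log2 fold change 2.35).

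The 22 collagens lower in cerebellum included 6 of 11 fibrillar, 5 of 9 FACIT, 3 of 6 basement membrane and 3 of 4 transmembrane chains, and both multiplexins. COL15A1 had 0.700, 0.373, 0.478, 0.904 and 0.299 CPM in sheep 687, 688, 690, 694 and 699, below every library of every other region (log2 fold change −3.52, edgeR adjusted p = 4.26e-11). The cerebellum also lay below all others for COL5A1, at a mean of 5.96 against 34.2 CPM (log2 fold change −2.46), and for COL5A3, COL8A2, COL13A1 and COL16A1. With COL27A1, that makes 1 of the 3 and 6 of the 22 called without overlap. Over all genes, 1977 were called higher and 4116 lower. Of these, 1942 were without overlap in either direction (9.18% of all genes tested). COL4A1 was lower by a smaller step, at a mean of 16.0 against 34.8 CPM (log2 fold change −1.09). COL28A1, near 0 in cerebellum, had −5.38 and COL6A5 −3.47 on the log2 scale. All 7 endothelial markers were called lower in cerebellum, where they summed to 47.0 to 75.3 CPM, and 3 of the 7 mural cell markers were; their part in the lower collagens was not tested.

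In pons the type IX chains led. COL9A3 had 51.1, 40.8, 59.7, 85.7 and 63.6 CPM, a mean of 60.2 ± 16.7 (SD, n = 5) against 9.76 CPM elsewhere (log2 fold change 3.40 ± 0.30 SE, edgeR adjusted p = 9.93e-13), and COL9A2 had 22.0, 19.4, 27.3, 15.2 and 30.9 CPM (log2 fold change 1.42, edgeR adjusted p = 8.62e-11). COL22A1 had 10.3, 10.6, 5.53, 15.8 and 7.39 CPM (log2 fold change 2.87, edgeR adjusted p = 2.47e-08). COL9A3 and COL22A1 were also higher in basal ganglia, by log2 fold changes of 2.04 and 1.83, and COL9A3 was lower in the frontal, posterior parietal and visual cortex, with −1.76, −1.82 and −1.82; those 3 calls were each lost in at least 1 fit without 1 sheep. COL14A1, a FACIT chain of fibril surfaces, was highest in basal ganglia with 29.1, 29.5, 17.3, 22.5 and 61.4 CPM (log2 fold change 1.62). COL19A1 was lowest in pons with 2.04, 0.959, 0.786, 0.734 and 0.510 CPM (log2 fold change −2.97, edgeR adjusted p = 1.24e-07). The call of COL17A1 in pons, at 1.87, rested on sheep 690, whose 32.4 CPM compared with 2.06 to 10.3 CPM in the others; without it the value was 0.64 (edgeR adjusted p = 0.338).

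In hippocampus all 4 transmembrane collagens were called higher, and in entorhinal cortex 3 of them. COL25A1 had 8.76, 12.1, 14.3, 6.72 and 4.78 CPM in hippocampus (log2 fold change 1.58), and COL23A1 had 3.26, 3.39, 1.12, 1.22 and 0.384 CPM (log2 fold change 2.55). COL24A1 had 9.45, 47.9, 6.59, 11.6 and 10.0 CPM (log2 fold change 2.34, edgeR adjusted p = 2.02e-07), with sheep 688 far above the rest. The largest hippocampal changes, those of COL28A1 and COL6A5, were uneven. COL28A1 had 7.33, 4.66, 13.8, 3.56 and 2.10 CPM (log2 fold change 3.62, edgeR adjusted p = 3.53e-07), and COL6A5 had 15.6, 23.9, 7.33, 3.01 and 0.589 CPM (log2 fold change 2.92, edgeR adjusted p = 5.84e-05). For COL6A5 sheep 688 was highest and 699 lowest, and all but 688 lay below the 22.6 CPM of 1 motor cortex library.

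The entorhinal cortex shared these genes but in other sheep. COL28A1 had 1.81, 0.153, 3.15, 20.8 and 3.73 CPM there (log2 fold change 3.54). COL6A5 had 1.63, 0.796, 2.91, 20.2 and 15.1 CPM (log2 fold change 2.58; without sheep 694 it was 1.81, edgeR adjusted p = 0.18). COL17A1 had 17.0, 4.23, 0.771, 18.1 and 33.7 CPM (log2 fold change 2.45; without sheep 699 it was 1.77, edgeR adjusted p = 0.0918). The motor cortex value of COL6A5 came from 1 library: 22.6 CPM in sheep 687 against 0.558 to 1.16 CPM in the other four (log2 fold change 1.85, and −0.76 without 687). That library also had the highest choroid plexus and fibroblast marker sums of the motor cortex, 679 and 290 CPM. The choroid plexus list had 3 of 4 markers called higher in hippocampus, cerebellum and pons. Its sum in hippocampus was 82.8, 148, 145, 1207 and 46.6 CPM in sheep 687, 688, 690, 694 and 699. The part of either list in the collagen values was not tested.

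Each neocortical region was compared with the mean of all other regions, and few collagens were called, as were few genes. Those means include cerebellum, where COL15A1 was lowest, and pons, where COL19A1 was lowest. Neocortical regions were not compared with each other, so the calls below do not show differences between them. COL15A1 was higher in visual cortex, with 6.17, 7.48, 14.2, 15.0 and 15.0 CPM in sheep 687, 688, 690, 694 and 699 (log2 fold change 1.37), and in prefrontal, posterior parietal and frontal cortex (1.30, 1.18 and 1.01), the last lost without any 1 of sheep 687, 690 and 699. COL19A1 was higher in visual cortex, with 16.5, 21.2, 11.0, 11.0 and 8.38 CPM (log2 fold change 1.17), and in frontal and prefrontal cortex (1.08 and 1.05), and each of these 3 calls was lost in at least 1 fit without 1 sheep. COL5A1 was higher in prefrontal cortex, at a mean of 52.0 ± 11.1 CPM (SD, n = 5) against 29.1 CPM (log2 fold change 1.03, 0.89 without sheep 687). COL25A1 was higher in motor cortex, at 7.66, 6.14, 11.8, 4.75 and 4.68 CPM (log2 fold change 1.10; without sheep 690 it was 0.81, edgeR adjusted p = 0.201).

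The fibrillar chains of loose connective tissue varied by library more than by region. COL1A1 had 4.32, 2.49, 14.8, 8.29 and 82.8 CPM in frontal cortex and 17.6, 9.37, 10.8, 92.1 and 10.2 CPM in posterior parietal cortex of sheep 687, 688, 690, 694 and 699. COL1A1, COL1A2 and COL3A1 together reached 321 CPM in the frontal cortex of sheep 699 and 270 CPM in the posterior parietal cortex of 694. The same libraries had mural cell marker sums of 1410 and 917 CPM, where the next highest in their regions were 276 and 351 CPM. Sums were also high in hippocampus of 694 and 699 (268 and 296 CPM), in entorhinal cortex of 690 (223) and in pons of 694 and 687 (269 and 168). The part of vessel wall and meninges in these dissections was not tested.

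**Figure D5:**
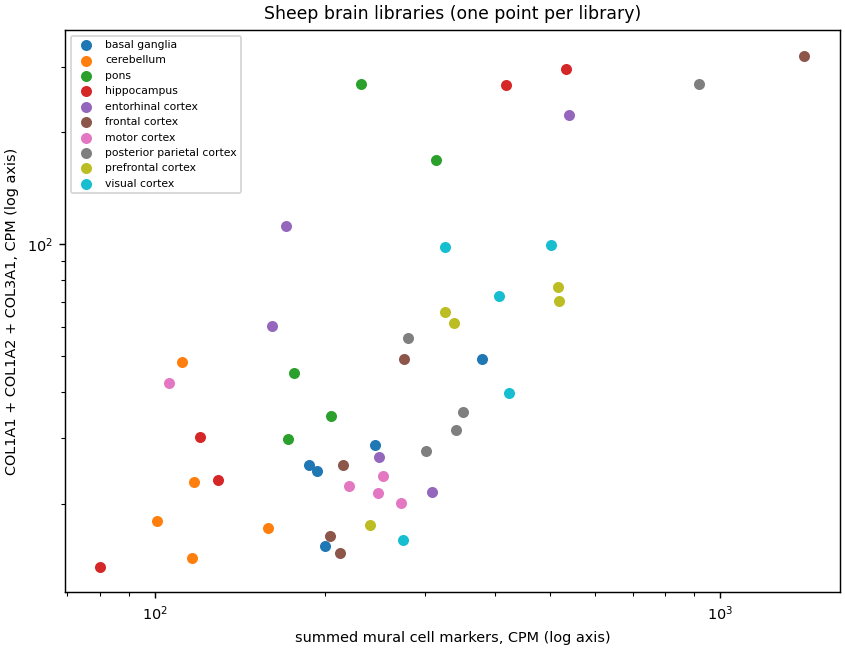
Summed CPM of COL1A1, COL1A2 and COL3A1 against the summed CPM of mural cell markers in each of the 50 sheep brain libraries, coloured by region, on log axes. The frontal cortex of sheep 699, at 321 and 1410 CPM, and the posterior parietal cortex of sheep 694, at 270 and 917 CPM, lie farthest to the right.

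Over the whole family the summed level was 5410.1 CPM in the lowest, 8471 in the median and 13907 in the highest ovary library. It was 785, 1916 and 4656 CPM in rat sperm, 518, 638 and 808 CPM in female rat brain and 593, 733 and 981 CPM in male rat brain. In sheep cerebellum, the region with the highest mean, it was 1039, 1145 and 1489.7 CPM. In sheep motor cortex, the region with the lowest mean, it was 302, 348 and 378 CPM. Sheep sperm had 87.2, 227 and 424 CPM, so with TMM scaling its highest library lay above every motor cortex library. That order depends on the scaling. A factor below 1 raises a level, and the factors were 0.124 to 0.343 in sheep sperm and 1.025 to 1.314 in motor cortex. These sums weight each gene by its count and so follow the most abundant members, such as COL27A1 in the sheep cerebellum and Col18a1 in rat sperm.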

How the data were processed

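Each file holds raw counts per gene, which the authors deposited: per the series text, reads were trimmed with Trimmomatic 0.39, aligned with STAR 2.7.5a to GRCr8 (rat) or ARS-UI_Ramb_v3.0 (sheep) and counted with Rsubread 2.20.0; DESeq2 is named in the submitters' processing notes. Handling of strand and multimapping reads is not given in the sources used here. RNA was extracted with TRIzol and libraries made with the Kapa stranded mRNA kit for sheep; rat used a Zymo kit and the Watchmaker stranded mRNA kit. From these counts, edgeR 4.0.16 in R 4.3.3 gave TMM factors, filtered genes with filterByExpr and fitted quasi-likelihood models (prior count 0.125). p-values were adjusted by Benjamini-Hochberg over all genes tested; a call needed an adjusted p below 0.05 together with a log2 fold change of 1 or more in either direction. Each SE was taken from the F statistic. Sheep sperm was compared with all 10 regions in 1 fit of the sheep libraries, each region with the other 9 in a fit of brain libraries alone, and each rat contrast in a fit of its 2 groups.

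The collagens, their classes, the pathway and marker lists and the tests were chosen with earlier results of these data known. All members may be named. Full statistics were meant for called members with at least 1 CPM in the higher group (up to 3 per class and direction, by level), the up to 3 largest changes per direction in a region, and the up to 4 largest species terms per direction among genes called in opposite directions. Where labels do not say that samples are separate animals, p-values measure only the spread between these samples. Sheep libraries with the same number come from the same animal: their deviations from the region means correlated at 0.163 to 0.245, over 0.1 in 5 of 5 sheep. The scripts were checked on simulated data. Alternatives were RLE and upper-quartile factors, no count filter, DESeq2 1.42.0, limma 3.58.1 (voom with quality weights), a replicate block, leaving out each sheep and summing brain counts per sheep. Leaving out libraries that stood apart was added after seeing the data.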

Additional observations from a re-analysis of the deposited data

Results flagged for a closer look

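Of 115 sets of 5 sheep libraries checked, 23 held 1 library far from the other four (a gap above 0.71 of the range), 22 of them high; for independent, normally distributed values chance flags about 1 set in 20, while these sets are skewed and share libraries, so the rate that applies here is not known. In frontal cortex sheep 699 stood high for COL1A1 (82.8 CPM), COL1A2 (143), COL3A1 (94.7), COL4A1 (79.2) and COL4A2 (88.5), and in posterior parietal cortex sheep 694 for COL1A1 (92.1), COL1A2 (110.3) and COL3A1 (67.6); these 2 libraries also had the mural cell marker sums of 1410 and 917 CPM. In cerebellum sheep 694 stood high for COL1A1 (19.4), COL3A1 (4.87) and COL6A3 (123). In motor cortex sheep 687 stood high for COL1A2 (22.6) and COL6A5 (22.6), and in entorhinal cortex sheep 690 for COL3A1 (34.4) and sheep 694 for COL28A1 (20.8). Pons held high values of COL17A1 in sheep 690 (32.4) and of COL25A1 (2.32) and COL28A1 (0.489) in sheep 694. COL14A1 was high in the basal ganglia of 699 (61.4) and COL9A3 in the frontal cortex of 694 (4.61), while COL1A2 was low in the prefrontal cortex of 688 (10.6). In sperm, COL15A1 (0.987, sheep 694) and COL9A2 (0.144, sheep 688) were each at 0 in the other four.

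Fold changes of sperm against brain that differed between the species in opposite directions, by the test of the difference in 1 fit, were those of COL25A1 (8.38), COL24A1 (6.63), COL2A1 (5.26), COL4A6 (−3.83), COL14A1 (−4.96), COL13A1 (−7.36) and COL6A2 (−10.03) on the log2 scale, sheep minus rat. The genes were picked for opposite calls in the same libraries, so the test is not separate support. Sheep calls of COL2A1, COL13A1 and COL14A1, and rat calls of COL14A1 and COL6A2, were lost in some alternatives.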

How the results depend on the processing

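Counts here are of called collagens, higher and lower, unless all genes are named. In sheep sperm, 8 and 24 were 13 and 14 with upper-quartile factors and 4 and 8 with voom. The all-gene counts of 7239 and 8976 were 8907 and 6980 with upper-quartile factors and 4825 and 7036 with voom. The rat sperm count of 11 higher was 6 with voom and 6 with a replicate block (4977 and 4384 of all genes, against 5663). Same-numbered rat libraries correlated above 0.1 in 3 of 15 sperm and 0 of 14 ovary pairs. No label ties a number to an animal, so the numbers were not used as pairs. Sheep sperm and brain of the same animals also correlated at only 0.04 to 0.09, so such a check cannot tell. The species term, 9 and 16, had 10 lower with RLE and upper-quartile factors and 14 and 10 with DESeq2. Its all-gene counts turned too, from 3619 and 5827 to 5044 and 3978 with RLE and 5493 and 3998 with DESeq2. With upper-quartile factors they were 4766 and 4376. Upper-quartile factors gave 1 higher in frontal and 2 lower in visual cortex (464 and 57 of all genes). DESeq2 gave 2 lower in frontal, 1 higher and 2 lower in motor, 3 lower in posterior parietal and 1 lower in prefrontal cortex. Its all-gene counts in the same order were 161, 303, 61, 195 and 295, against 85, 320, 27, 96 and 149 in the main fit. The replicate block by sheep gave 2 lower in posterior parietal and 1 lower in prefrontal cortex (113 and 178 of all genes). It ended the call of COL6A5 in motor cortex (1.46, edgeR adjusted p = 0.198) and changed no other regional call of a named gene. voom gave 2 lower in frontal cortex, where it called 258 of all genes lower. Without the 2 libraries high in mural markers, chosen after seeing the data, frontal cortex had 1 higher and 3 lower and hippocampus 16 higher. The all-gene counts in the same order were 488, 197 and 831. The causes were not tested.

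Leaving out 1 sheep at a time gave these ranges: sheep sperm 7 to 10 higher and 19 to 23 lower, species term 9 to 10 and 12 to 15, any region 34 to 39, basal ganglia 3 to 4 and 6 to 10, cerebellum 3 to 5 and 17 to 20, entorhinal cortex 3 to 5 higher, frontal cortex 0 to 3 and 0 to 3, hippocampus 8 to 9 and 0 to 2, motor cortex 1 to 2 and 0 to 1, pons 11 to 16 and 3 to 7, posterior parietal cortex 1 to 2 and 0 to 1, prefrontal cortex 1 to 3 and 0 to 1, and visual cortex 1 to 2 and 0 to 2. Signs turned for COL2A1 in sheep sperm (voom, −0.86), COL6A5 in motor cortex (without replicate 687, −0.76; without the other sheep, up to 2.32), Col6a2 in rat sperm (replicate block −1.15, voom −1.39, without library 15 −0.81), Col3a1 (voom, −0.32) and Col6a5 (voom, −0.63) in rat sperm. Of the other values of single genes, 1485 kept their direction and side of the threshold or moved less than the spread, 108 lost the call and 15 moved. The TMM-scaled median of all genes lay at −0.42 in sheep sperm, and at −0.17, 0.31 and 1.05 under RLE, upper-quartile and DESeq2 scaling. Depth limits low values in sperm, and rat sperm libraries 7, 16 and 17 hold few genes at low counts; voom was not run for the test over all regions, and 11 DESeq2 fits without an adjusted p were left out.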
